A study of Rattus norvegicus with 7 samples.

Results

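miR-26a-5p and miR-26b-5p (rno-miR-26a-5p and rno-miR-26b-5p on the array) are the mature 5p arms of the miR-26 hairpins. They were taken by name, as every non-control spot on the array assigned to either of them, which gave 2 of the 719 miRNAs and 4 of the 1730 probes. Both were detected on all 7 arrays and both were among the 181 miRNAs tested. The cells were rat primary skeletal muscle cells from limb muscle of newborn animals, frozen at an early passage and bought from a cell collection, and all had spent 11 days in low-serum differentiation medium. The 4 IL-6 samples had recombinant interleukin-6 (IL-6), a cytokine that working muscle releases, at 1 ng/ml during those 11 days; the 3 control samples were untreated by their titles and the design text, although the growth protocol names IL-6 for every sample. The labels do not say how many animals or separate cultures stand behind the replicates, so a p-value here reflects the spread between these 7 samples, which may be technical. In whole-culture RNA, fewer cells of a type and less RNA per cell cannot be told apart.

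miRNAs guide the silencing complex to messenger RNAs, mainly through the seed, bases 2 to 8 from the 5′ end. In mouse myoblasts miR-26a rises during differentiation and represses Ezh2, the methyltransferase of Polycomb repressive complex 2 that keeps muscle genes silent, and it also targets Smad1 and Smad4 of the TGF-beta and BMP pathway. The miR-26 hairpins lie in introns of genes for small C-terminal domain phosphatases (the Ctdsp genes), with which they are co-expressed in mammals. The array measured miRNAs only, so neither Ezh2 nor the host genes were measured here.

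The mature sequences of both members and of the opposite arms of their hairpins are shown with the seed in capitals, because the members share a seed and differ elsewhere (RefSeq, GRCr8).
miR-26a-5p: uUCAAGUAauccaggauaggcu
miR-26b-5p: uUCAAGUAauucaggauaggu
miR-26a-3p: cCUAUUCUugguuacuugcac
miR-26b-3p: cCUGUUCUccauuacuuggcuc

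miR-26a-5p is at chr8:127633063-127633084 on the plus strand, inside Ctdspl, and miR-26b-5p at chr9:83425723-83425743 on the plus strand, inside Ctdsp1, also on that strand. Each mature sequence occurred in 1 of the RefSeq hairpins. Counted from the 5′ end of miR-26a-5p, the members matched at 19 of the 21 positions they share and differed by C11U and C21U, and miR-26a-5p has a length of 22 bases. No other of the 651 array miRNAs that matched the table by name carried the seed, so the pair made up the whole seed group among them.

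The 4 probes are shown with capitals at the bases that face a position where the other member differs or has ended.
miR-26a-5p, 16-base probe: AGcctatcctgGatta
miR-26a-5p, 15-base probe: AGcctatcctgGatt
miR-26b-5p, 21-base probe: AcctatcctgAattacttgaa
miR-26b-5p, 20-base probe: AcctatcctgAattacttga

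The miR-26a-5p probes paired with bases 7 to 22 and 8 to 22 of their target, leaving out most of the seed, and had 3 positions unmatched by miR-26b-5p. The miR-26b-5p probes paired with bases 1 to 21 and 2 to 21 and had 2 positions unmatched by miR-26a-5p. Cross-hybridisation between the members was not tested. The probe with the higher mean signal, the longer one for each member, entered the fit, and the other is given beside it.

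The signal of a spot is Feature Extraction's background-subtracted intensity. Spots of a probe were averaged, and each array was divided by a factor. This was its 75th percentile over 268 probes well above background everywhere, relative to the geometric mean of that percentile over the arrays. Values were then put on the log2 scale. Each member probe had 10 spots per array, of which 8 to 10 remained after outlier spots were removed. Before scaling, the 16-base probe of miR-26a-5p had mean intensities of 1363, 2036, 1754 and 1751 on IL-6 replicates 1 to 4, against 1255, 1413 and 1596 on control replicates 1 to 3. The 21-base probe of miR-26b-5p had 447, 830, 699 and 702 on the IL-6 arrays, against 465, 566 and 652 on the control arrays. Both members were well above the array's detection limit on every array: the floor of the scaled values was 15.7 intensity units, and no member probe was at it.

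The arrays themselves differed in brightness. Their 75th percentiles were 434 to 615 intensity units with IL-6 and 419 to 492 in control, and replicate 1 had the lowest of its group in both. All arrays shared 1 slide. The IL-6 arrays filled its slide row 2 and the control arrays its slide row 1, so the slide row cannot be told apart from the treatment. The label of the cells was checked against muscle-specific miRNAs (miR-1-3p, miR-133a-3p, miR-206-3p and 4 others of this kind): 0 of 7 were detected on any array. These miRNAs thus gave no evidence of differentiated muscle in the samples. Of 5 markers of fibroblasts and smooth muscle, 4 (miR-143-3p, miR-145-5p, miR-199a-3p and miR-199a-5p) were found on every array, and 0 passed the test, with a summed log2 signal of 14.21 to 14.44 with IL-6 and 14.40 to 14.51 in control. Their part in the miR-26 levels was not tested. No endothelial or epithelial marker was detected, 5 of 6 blood markers were detected on no array, and 2 of 4 neural markers were tested, with neither past the threshold.

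**Figure D1:**
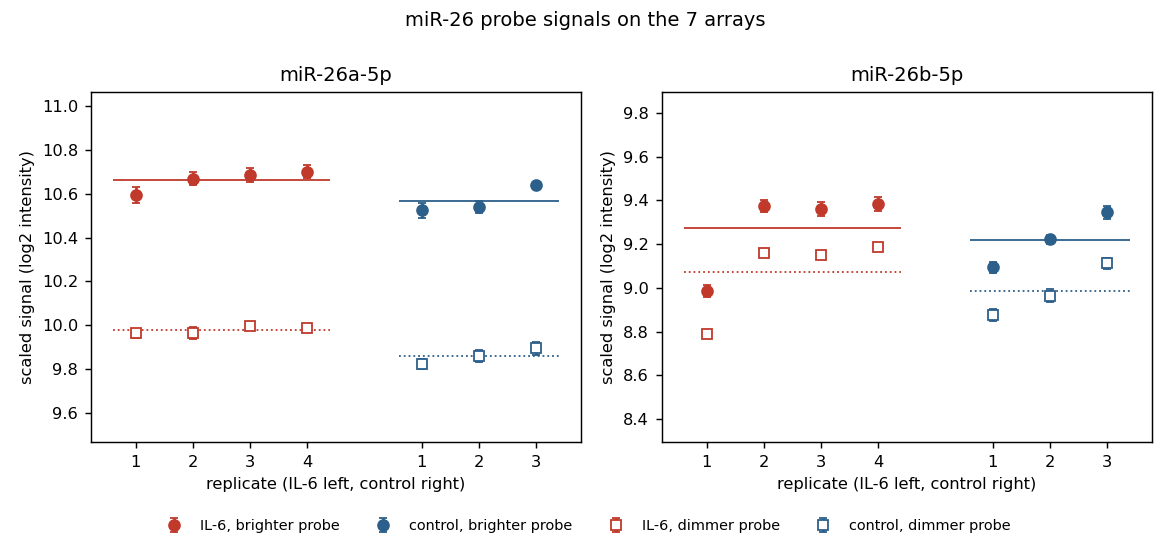
Scaled log2 signal of the 2 probes of miR-26a-5p (left) and of miR-26b-5p (right) on each array, with IL-6 replicates left of control replicates. Filled circles are the probe used in the fit and open squares the other. Bars are ± the standard error of the probe's spots, and horizontal lines are group means. Replicate 1 of each group is the lowest of its group for both members. For the probe used it is at 10.59 with IL-6 and 10.52 in control for miR-26a-5p, and at 8.98 and 9.09 for miR-26b-5p.

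The question put to the arrays was whether the cytokine alters the level of these differentiation-promoting miRNAs. miR-26a-5p (rno-miR-26a-5p) had slightly higher values with IL-6, 6.81% on average, and did not pass the test across all miRNAs. Its scaled log2 signal was 10.59, 10.67, 10.69 and 10.70 on IL-6 replicates 1 to 4, against 10.52, 10.54 and 10.64 on control replicates 1 to 3. The groups overlapped, because control replicate 3 lay above IL-6 replicate 1; the 3 other IL-6 arrays lay above all controls. The means were 10.66 ± 0.05 with IL-6 (SD, n = 4) and 10.57 ± 0.06 in control (SD, n = 3). The log2 fold change was 0.10 ± 0.04 (SE), with a 95% interval of -0.0042 to 0.19 (limma, Benjamini-Hochberg adjusted p = 0.200). The exact two-sided permutation p was 0.0857 over the 35 splits of the arrays. Of the 181 tested miRNAs, 17 (9.39%) passed the adjusted threshold of 0.05, and the p of miR-26a-5p was the 52nd smallest.

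The 15-base probe of miR-26a-5p gave the same direction with less spread between arrays. It read 9.96, 9.96, 10.00 and 9.99 on the IL-6 arrays, against 9.82, 9.86 and 9.89 on the control arrays. For this probe every IL-6 array lay above every control array, which was so for 11.6% of the tested miRNAs on the probes used for them (22.1% in either direction). Its log2 fold change was 0.12 ± 0.02 (SE), and it passed when it took the place of the other probe in the fit across all miRNAs (limma, Benjamini-Hochberg adjusted p = 0.0347, where 9.94% of miRNAs passed). Its exact two-sided permutation test gave p = 0.0286, which is the lower limit with 35 splits. With the mean of both probes the log2 fold change was 0.11 ± 0.03 and did not pass (limma, Benjamini-Hochberg adjusted p = 0.0816). The call for miR-26a-5p therefore differed between its own probes, while the sizes differed by less than the standard error of the first.

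miR-26b-5p (rno-miR-26b-5p), the member encoded in Ctdsp1, did not differ between the groups beyond its spread. Its scaled log2 signal was 8.98, 9.37, 9.36 and 9.38 on IL-6 replicates 1 to 4, against 9.09, 9.22 and 9.35 on control replicates 1 to 3. IL-6 replicate 1 was the lowest of all 7 arrays, and the 3 other IL-6 arrays were the highest. The means were 9.28 ± 0.19 with IL-6 (SD, n = 4) and 9.22 ± 0.13 in control (SD, n = 3). The log2 fold change was 0.06 ± 0.12 (SE), with a 95% interval of -0.24 to 0.35 (limma, Benjamini-Hochberg adjusted p = 0.839), and the exact two-sided permutation p was 0.600. The interval reaches well to both sides of 0.

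The 20-base probe of miR-26b-5p followed the same pattern. It read 8.79, 9.16, 9.15 and 9.19 on the IL-6 arrays, against 8.88, 8.96 and 9.11 on the control arrays, again with IL-6 replicate 1 lowest. Its log2 fold change was 0.09 (exact two-sided permutation p = 0.514). Over the 7 arrays the readings of both miR-26b-5p probes correlated at r = 0.99, and those of both miR-26a-5p probes at r = 0.87.

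The value for miR-26b-5p rested on single arrays. Without IL-6 replicate 1 the log2 fold change was 0.15 ± 0.07 (limma, Benjamini-Hochberg adjusted p = 0.192), and without control replicate 1 it was -0.0083 ± 0.14 (adjusted p = 1.00). Without control replicate 3 it was 0.12 ± 0.13 (adjusted p = 0.631). With both control replicate 3 and IL-6 replicate 1 left out, an alternative chosen after seeing the data, both members passed: miR-26b-5p had 0.22 ± 0.04 and miR-26a-5p 0.15 ± 0.02 (limma, Benjamini-Hochberg adjusted p = 0.0492 and 0.0240). In that fit of 3 IL-6 and 2 control arrays 17.1% of the tested miRNAs passed.

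**Figure D2:**
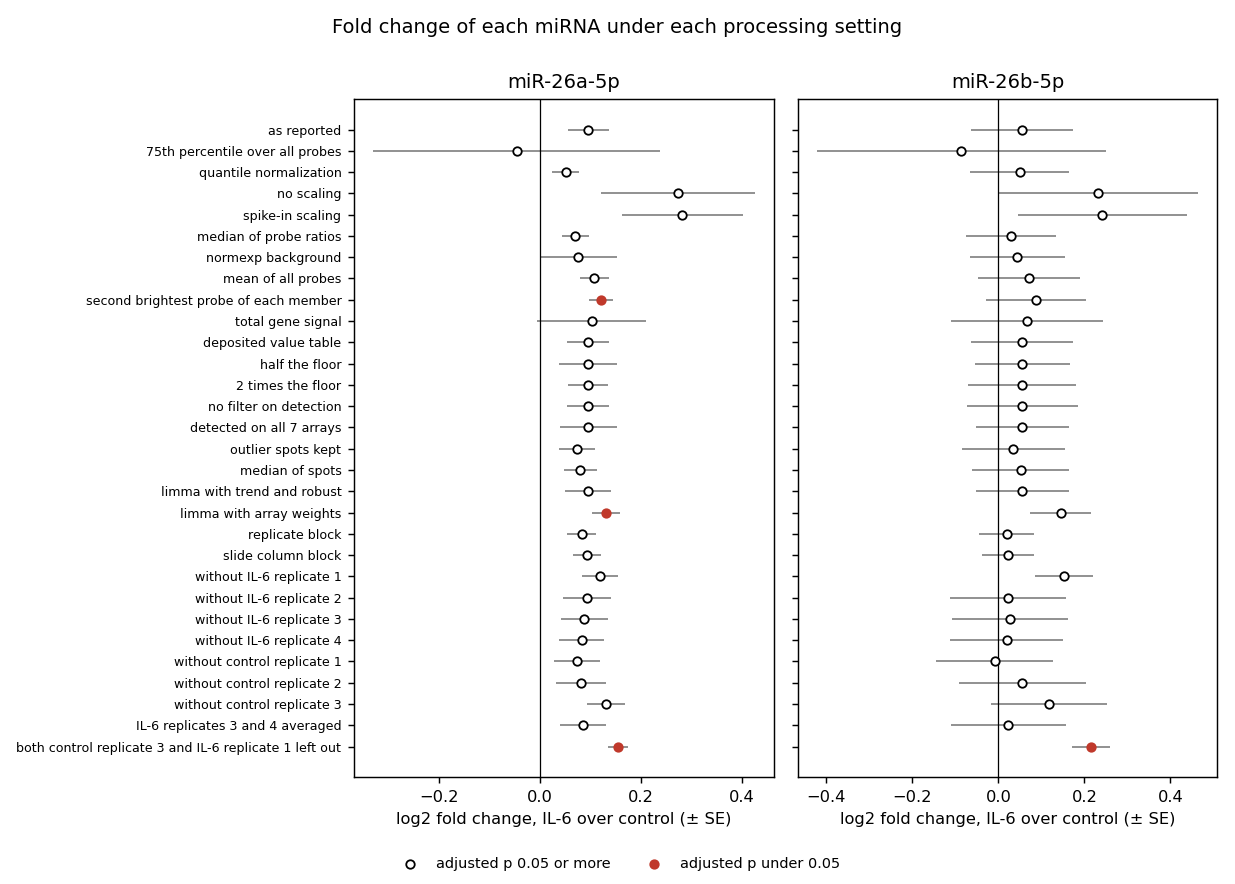
Log2 fold change (IL-6 over control) of miR-26a-5p (left) and miR-26b-5p (right) as reported and under 29 other settings, with bars of ± SE. Filled red points passed the adjusted threshold of 0.05: for miR-26a-5p the 15-base probe (0.12), array weights (0.13, where 47 of the 181 miRNAs passed) and the fit that leaves out control replicate 3 together with IL-6 replicate 1 (0.15), and for miR-26b-5p that last fit alone (0.22).

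The pooled SD between arrays of one group was 0.05 on the log2 scale for miR-26a-5p and 0.17 for miR-26b-5p, where the median over the 181 tested miRNAs was 0.09. Of the tested miRNAs, 35 had a smaller SD than miR-26a-5p and 159 had a smaller one than miR-26b-5p. The value for miR-26b-5p rested on IL-6 replicate 1: without that array its SD was 0.09 and that of miR-26a-5p 0.05, where the median was 0.08, and 114 miRNAs had a smaller SD than miR-26b-5p. With any other array left out the SD of miR-26b-5p was 0.17 to 0.19. The spots of a probe were similarly tight for both: the standard error of the mean of the spots had a median of 0.03 on the log2 scale for each probe used. Over all 7 arrays the highest signal was 1.13 times the lowest for miR-26a-5p and 1.32 times for miR-26b-5p.

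For both members the lowest array of each group was the one with the lowest 75th percentile of its group. These percentiles were 434 for IL-6 replicate 1 and 419 for control replicate 1. These arrays also shared slide column 1. The part of brightness or of slide position in the low values was not tested. On the slide, 3 columns held both an IL-6 and a control array. Over all tested miRNAs, the deviations from the group means of these pairs correlated at 0.52, 0.19 and 0.13 in slide columns 1, 3 and 4. For miR-26a-5p the IL-6 array minus the control array was 0.07, 0.15 and 0.06 on the log2 scale in slide columns 1, 3 and 4, positive in each. For miR-26b-5p it was -0.11, 0.14 and 0.037, negative in slide column 1. The median of this difference over all tested miRNAs was 0, 0 and 0.040 in slide columns 1, 3 and 4. In slide column 4 miR-26b-5p thus lay just below that median, and miR-26a-5p only slightly above it. With slide column as a block the log2 fold changes were 0.09 ± 0.03 for miR-26a-5p and 0.02 ± 0.06 for miR-26b-5p (limma, Benjamini-Hochberg adjusted p = 0.165 and 0.863). In that fit 52 miRNAs had an unadjusted p under 0.05 and 0 passed after adjustment. IL-6 replicate 2 was alone in slide column 2, so the block absorbed it and these fold changes equal those without that array. This fit also had fewer degrees of freedom than the fit as reported.

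Any factor applied to a whole array cancels in the difference between the members within that array. The log2 signal of miR-26a-5p minus that of miR-26b-5p was 1.61, 1.30, 1.33 and 1.32 on IL-6 replicates 1 to 4, against 1.43, 1.32 and 1.29 on control replicates 1 to 3. Different probes bind with different strength, so only the change of this value between groups can be read. The groups overlapped, and IL-6 replicate 1 alone lay above all controls. The mean was 1.39 ± 0.15 with IL-6 (SD, n = 4) and 1.35 ± 0.07 in control (SD, n = 3), a difference of 0.04 (exact two-sided permutation p = 0.800). An unequal response of the members was thus not detectable with these arrays, and the p does not show that they responded alike.

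Array-wide scaling moved both members together. With no scaling the log2 fold changes were 0.27 for miR-26a-5p and 0.23 for miR-26b-5p, and with spike-in scaling 0.28 and 0.24, but the median of all tested miRNAs was then 0.17 and 0.18, rather than 0.02. Relative to that median, miR-26a-5p stood at 0.10 without scaling and 0.10 with spike-in scaling, against 0.08 as reported, and miR-26b-5p at 0.06 and 0.06, against 0.04. With normexp background correction the log2 fold changes were 0.076 for miR-26a-5p and 0.044 for miR-26b-5p, against 0.10 and 0.06 as reported. The median of the tested miRNAs was then 0.07, against 0.02 as reported. Relative to that median the excess was gone, with miR-26a-5p at 0.0051 and miR-26b-5p at -0.026. When every probe entered the 75th percentile, most of them near background, the median of the tested miRNAs was -0.12 and the fold changes turned to -0.046 and -0.086. Dividing by the median ratio of probes gave 0.07 ± 0.03 for miR-26a-5p and 0.03 ± 0.11 for miR-26b-5p, neither past the threshold (limma, Benjamini-Hochberg adjusted p = 0.143 and 0.920).

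**Figure D3:**
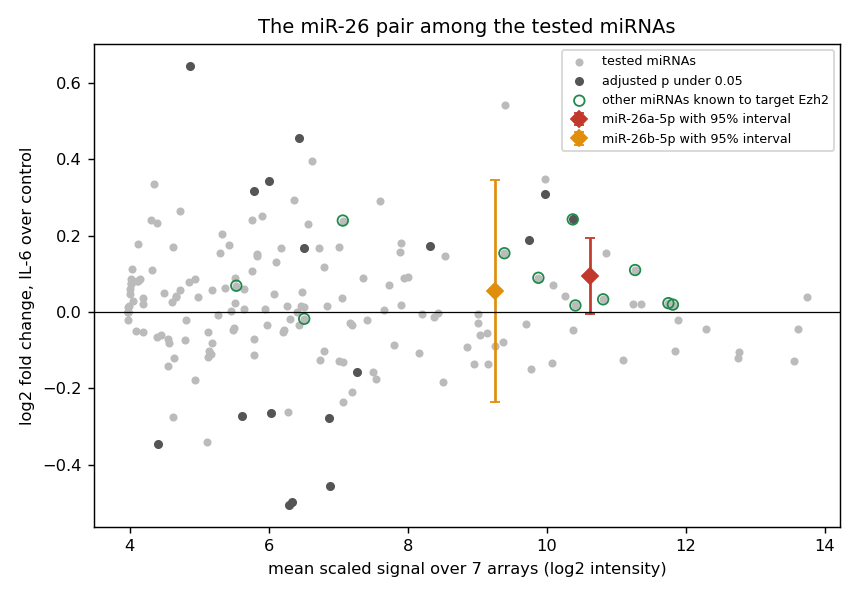
Log2 fold change (IL-6 over control) against the mean scaled signal over the 7 arrays for the 181 tested miRNAs (grey; dark where the adjusted p was under 0.05). Diamonds with 95% intervals are miR-26a-5p (0.10) and miR-26b-5p (0.06), and green rings are the 11 tested miRNAs of the list of others known to target Ezh2, of which let-7b-5p alone passed.

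The opposite arms of the hairpins, miR-26a-3p and miR-26b-3p, are usually degraded when the 5p arm is loaded. Neither was detected on any array. After outlier spots were removed, none of the 129 spots of the 2 probes for miR-26a-3p and none of the 138 spots of the 4 probes for miR-26b-3p was well above background. The highest scaled probe signals were 1.74 and 5.30 intensity units, below the floor of 15.7, so no fold change is given. 

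Other miRNAs reported to repress Ezh2 in mouse or human cells were set beside the pair. The list held 14 miRNAs, of which 11 were tested; miR-124-3p, miR-137-3p and miR-138-5p were detected on no array. Of the 11, 1 rose and none fell, where 4.97% of all tested miRNAs rose and 4.42% fell. Their median log2 fold change was 0.07, against 0.02 over all tested miRNAs. Positive values were found for 10 of the 11, against 54.7% of all tested miRNAs. That number was 7 of 11, against 45.9% of all, with the median ratio of probes as the scale, and 3 of 11, against 28.2% of all, when every probe entered the percentile. In that last scaling the list's median was -0.072 and that of all tested miRNAs -0.12. Of the 11, 8 carry the let-7 seed and 2 the miR-101 seed, and none has that of miR-26, so these miRNAs are not independent of each other in sequence.

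let-7b-5p, of the differentiation-associated let-7 family, rose with a log2 fold change of 0.24 ± 0.04 (limma, Benjamini-Hochberg adjusted p = 0.0224). It kept that sign in all 29 alternatives, not all of which could move the value, and passed in 14. Without control replicate 2 the value was 0.21 (adjusted p = 0.0822). It also did not pass without control replicate 1 (0.24), IL-6 replicate 3 (0.25) or IL-6 replicate 4 (0.26). With slide column as a block it had 0.23 and did not pass (limma, Benjamini-Hochberg adjusted p = 0.0962). The 3 other miRNAs of the list with the highest levels did not pass: let-7a-5p had 0.02 ± 0.07, let-7f-5p 0.02 ± 0.10 and let-7c-5p 0.11 ± 0.04 (adjusted p = 0.909, 0.909 and 0.135). The signs of let-7a-5p and let-7f-5p turned under some scalings, as given in the closing part.

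Of 13 miRNAs known to promote or accompany myoblast differentiation, 12 were tested, 1 rose and 1 fell, where 4.97% of all tested miRNAs rose and 4.42% fell. The median log2 fold change of the list was 0.03, against 0.02 over all tested miRNAs. miR-181a-5p, which in mouse represses Hoxa11 during differentiation, rose by 0.31 ± 0.06 on the log2 scale, and miR-34c-5p, a p53 target, fell by 0.28 ± 0.04 (limma, Benjamini-Hochberg adjusted p = 0.0240 and 0.0143). Both kept their sign in all 29 alternatives, not all of which could move the value. miR-181a-5p passed in 15 of them and miR-34c-5p in 19. The value of miR-34c-5p was -0.10 with no scaling, -0.091 with spike-in scaling and -0.13 with normexp background correction. None of these passed (limma, Benjamini-Hochberg adjusted p = 0.616, 0.470 and 0.857). When every probe entered the 75th percentile it was -0.42 and did not pass either. Leaving out 1 array gave 0.27 to 0.34 for miR-181a-5p, which did not pass without any 1 of the control replicates or without IL-6 replicate 3 or 4. For miR-34c-5p it gave -0.30 to -0.25, and it did not pass without control replicate 1 or 2. With slide column as a block neither passed, at 0.34 for miR-181a-5p and -0.25 for miR-34c-5p (limma, Benjamini-Hochberg adjusted p = 0.0509 for each). miR-24-3p, which promotes differentiation and is repressed by TGF-beta in mouse myoblasts, had -0.10 ± 0.03 and miR-27a-3p, which targets myostatin in mouse, had 0.02 ± 0.10, neither past the threshold (adjusted p = 0.0839 and 0.909); miR-24-3p was 0.076 with no scaling and 0.084 with spike-in scaling. The fold change of miR-26a-5p, 0.10, lay inside the range of this list, -0.28 to 0.35.

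The miRNAs whose signal followed each member most closely over the 7 arrays were found by Pearson correlation with 174 other tested miRNAs. They are descriptions, since the points share array brightness and scaling, and the median correlation over all 174 was 0.28 for either member. The 95th percentile of these correlations was 0.93 for miR-26a-5p and 0.90 for miR-26b-5p. miR-26a-5p and miR-26b-5p themselves correlated at r = 0.75 (n = 7).

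Closest to miR-26a-5p were miR-15b-5p (r = 0.99), miR-582-5p (0.97), miR-218a-5p (0.97), miR-411-3p (0.96) and miR-101a-3p (0.96). Of these, miR-218a-5p is also on the list of neural markers. miR-15b-5p, of the cell-cycle-restraining miR-15 and miR-16 family, read 5.63, 5.89, 5.93 and 5.97 on the IL-6 arrays, against 5.50, 5.52 and 5.82 on the control arrays. As for miR-26a-5p, IL-6 replicate 4 was highest, control replicate 1 lowest, and control replicate 3 lay above IL-6 replicate 1. The log2 fold changes of these 5 miRNAs were 0.23 to 0.29, larger than that of miR-26a-5p, and none passed (limma, Benjamini-Hochberg adjusted p from 0.0801 to 0.358).

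Closest to miR-26b-5p were miR-598-3p (r = 0.94), miR-27a-3p (0.93), miR-30b-5p (0.92), miR-20a-5p (0.92) and miR-101b-3p (0.91). In miR-27a-3p the IL-6 arrays read 11.05, 11.27, 11.35 and 11.31, against 11.09, 11.20 and 11.39 on the control arrays. Replicate 1 was the lowest of each group, as it was for both members. The log2 fold changes of these 5 were -0.0039 to 0.07, and none passed.

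Both lists of nearest miRNAs, picked as the highest correlations in these same data, hold a copy of miR-101, which targets Ezh2 in human cells. The copies are almost identical in sequence and cross-hybridisation between them was not tested, so they may not be separate observations. The miR-101 sequences are shown because they share a seed with each other and not with miR-26 (seed in capitals, RefSeq, GRCr8).
miR-101a-3p: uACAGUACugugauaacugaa
miR-101b-3p: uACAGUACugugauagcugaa

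miR-101a-3p is at chr5:121081691-121081711 on the minus strand and miR-101b-3p at chr1:236273982-236274002 on the plus strand. miR-101a-3p read 6.97, 7.15, 7.24 and 7.31 on the IL-6 arrays, against 6.69, 6.88 and 7.21 on the control arrays, with control replicate 1 lowest. Its log2 fold change was 0.24 ± 0.14 and that of miR-101b-3p 0.07 ± 0.11 (limma, Benjamini-Hochberg adjusted p = 0.358 and 0.788).

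The G and C content was 40.9% for miR-26a-5p and 33.3% for miR-26b-5p, against a median of 45.5% over the 167 tested miRNAs with a RefSeq sequence. The 5 miRNAs closest to miR-26a-5p had 33.3% to 40.9%, all at or below its own value, and the 3 with a sequence among those closest to miR-26b-5p had 38.1% to 52.4%. The part of base composition in the shared patterns was not tested.

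**Figure D4:**
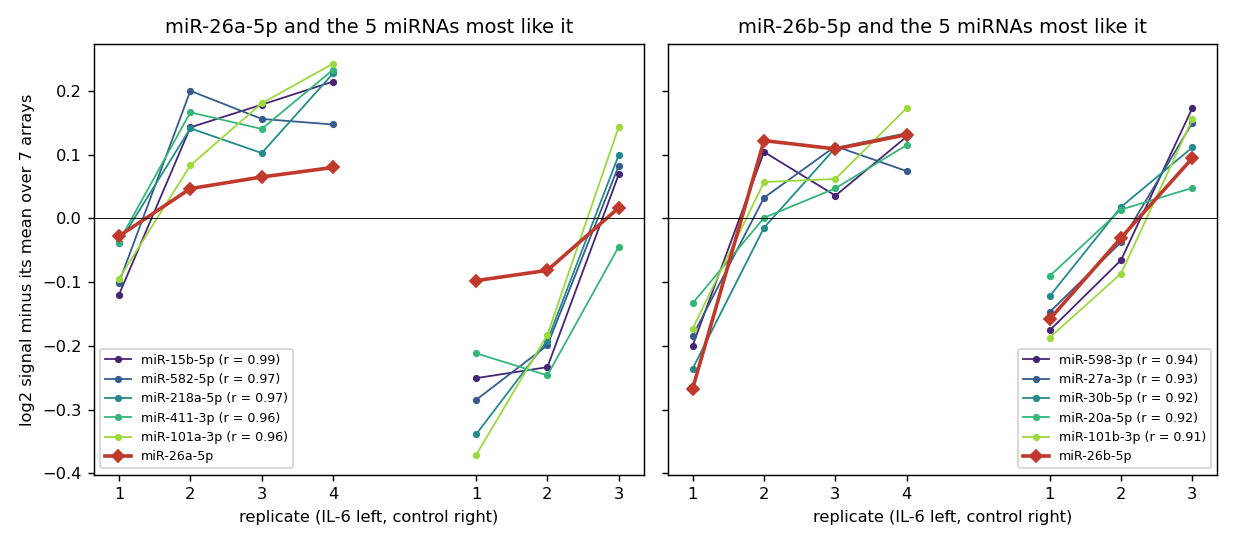
Log2 signal minus its mean over the 7 arrays for miR-26a-5p (left) and miR-26b-5p (right, thick red lines) and the 5 tested miRNAs most correlated with each, with IL-6 replicates left of control replicates. Lines only join the points of 1 miRNA, since replicates have no order. The neighbours of miR-26a-5p swing more widely than it does. Replicate 1 of each group is the lowest of its group in every line on the right. The same holds on the left, except that control replicate 2 is the lowest control for miR-411-3p.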

How the data were processed

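Each sample was total RNA labelled with Cy3 and run on an Agilent miRNA array of its own, per the labels' protocols. Spot intensity values in the deposited scanner files came from Agilent Feature Extraction 10.10.1.1, per the submitters' processing notes and the file headers; the processed signal is background-subtracted, linear and not scaled between arrays. In the deposited value table, each of the 15095 spots per array carries Feature Extraction's total probe signal (within 0.001), a linear value neither centred nor scaled, with column medians from -1.35 to 0.10. File positions refer to rn4, and positions in the text are those of RefSeq on GRCr8.

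Control and outlier spots (2.88% to 3.84% of 14380) were left out, and 0 non-control spots were saturated. A miRNA took its brightest probe and was tested where all arrays of 1 group or both had it marked as detected by Feature Extraction. For a probe to be well above background, a share of at least 0.5 of the spots had to be. Scaled values under 15.7 units, the median over arrays of the lowest signal above background, were raised to that floor. limma 3.58.1 in R 4.3.3 (lmFit, eBayes) compared the groups, with Benjamini-Hochberg adjusted p-values over 181 miRNAs and a threshold of 0.05. The number of arrays limits precision in general: log2 fold changes had a median SE of 0.07.

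The members and lists were chosen with earlier results of these data known. The text names both members with their probes and opposite arms, miRNAs of the same seed, the 5 most correlated with each member, and in the Ezh2 and differentiation lists those past the threshold, then those of highest level until 4 were named. Alternatives covered scaling, background (normexp with an offset of 50), probe summary, value source, floor, filter, spots, model, blocks and leaving out arrays. Floor, detection filter and limma's trend and robust options could move the members' p-values but not their fold changes. This also held for let-7b-5p, miR-181a-5p and miR-34c-5p. The deposited value table gave near-identical fold changes. The slide column block repeated the fold changes without IL-6 replicate 2, and the replicate block those without IL-6 replicate 4. Unchanged alternatives are thus not all separate checks. Chosen after seeing the data were the spread between arrays with each array left out, the average of IL-6 replicates 3 and 4, and the fit that omits control replicate 3 together with IL-6 replicate 1.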

Additional observations from a re-analysis of the deposited data

Results flagged for a closer look

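Dixon's test for a stray value, applied to the 4 IL-6 arrays for 13 quantities, singled out 3 at its 95% level, where chance singles out about 1 in 20. All 3 rested on miR-26b-5p on IL-6 replicate 1. That array stood apart over all tested miRNAs as well: the SD of the log2 difference to the other IL-6 arrays was 0.18 to 0.21, while it was 0.087 to 0.13 among those. It was also the most distant IL-6 array, below the 95% level of the test, for miR-26a-5p, let-7a-5p, let-7f-5p, miR-27a-3p and miR-181a-5p. The probe used in the fit read 8.98 there and 9.36 to 9.38 on the other IL-6 arrays (log2). Its other probe read 8.79 there and 9.15 to 9.19 on the others. The log2 signal of miR-26a-5p minus that of miR-26b-5p was 1.61 there and 1.30 to 1.33 on the others. These 3 values share the miR-26b-5p signal of 1 array and are not separate observations. That array also had the lowest mean spike-in signal, 11.67 on the log2 scale, while the other IL-6 arrays had 11.81 and the control arrays 11.75 to 11.81. Its part was not tested.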

How the results depend on the processing

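Of 29 alternatives, 25 left the sign and call of miR-26a-5p as reported and 26 those of miR-26b-5p. For the within-array difference it was 17 of 19. Not all could move the value. When every probe entered the 75th percentile, miR-26a-5p had -0.046, miR-26b-5p -0.086, let-7a-5p -0.12, let-7c-5p -0.031, let-7f-5p -0.12 and miR-27a-3p -0.12 (log2 fold changes). miR-26a-5p passed with the 15-base probe (0.12), with array weights (0.13) and with control replicate 3 and IL-6 replicate 1 both left out (0.15). miR-26b-5p passed in that last fit (0.22), where the within-array difference was -0.062. With 1 array left out, miR-26a-5p had 0.07 to 0.13, miR-26b-5p -0.0083 to 0.15 (lowest without control replicate 1), the within-array difference -0.034 to 0.082 (lowest without IL-6 replicate 1), let-7a-5p -0.019 to 0.077 and let-7f-5p -0.024 to 0.11 (both lowest without IL-6 replicate 2), and miR-27a-3p -0.048 to 0.10 (lowest without control replicate 1, -0.015 without IL-6 replicate 3, -0.0015 without IL-6 replicate 4). The median ratio of probes as the scale gave -0.0060 for let-7a-5p, -0.0021 for let-7f-5p and -0.0054 for miR-27a-3p. Keeping outlier spots gave -0.0046, -0.011 and -0.0083 for the same miRNAs, and the mean of all probes -0.0021 for let-7f-5p. The slide column block gave -0.019 for let-7a-5p and -0.024 for let-7f-5p, the same values as without IL-6 replicate 2. miR-27a-3p was -0.0081 with IL-6 replicates 3 and 4 averaged. miR-24-3p had 0.076 with no scaling and 0.084 with spike-in scaling. The cause was not tested.

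As reported, 9 miRNAs were higher and 8 lower. limma called 0 after adjustment with every probe in the percentile (1 had an unadjusted p under 0.05), no scaling (29), normexp (7), no filter on detection (41), the slide column block (52) and without control replicate 1 (35). Counts of higher and lower calls were 4 and 0 with spike-in scaling, 3 and 2 with total gene signal, 11 and 14 with the median ratio of probes, 6 and 5 at 2 times the floor, 29 and 18 with array weights, 1 and 5 with IL-6 replicates 3 and 4 averaged, and 20 and 11 with both named arrays left out. With 1 array left out, 0 to 10 were higher and 0 to 7 lower.

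The labels do not say whether the replicate numbers pair the samples. Deviations from the group means of same-numbered arrays correlated at 0.52, -0.18 and 0.26, too few values to decide it. The pair at 0.52 also shared slide column 1, so number and column cannot be told apart there. With the replicate number as a block, miR-26a-5p had 0.08 (limma, Benjamini-Hochberg adjusted p = 0.210), miR-26b-5p 0.02 (adjusted p = 0.891) and miR-27a-3p -0.0015, and 0 miRNAs were higher and 3 lower (45 had an unadjusted p under 0.05).

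The 95% intervals span -0.0042 to 0.19 for miR-26a-5p and -0.24 to 0.35 for miR-26b-5p. The SE of miR-26b-5p was 0.12 as reported, 0.067 without IL-6 replicate 1 and 0.061 with the slide column block. The slide row cannot be told apart from the treatment. Both members were far above background on every array, while their opposite arms were detected on none. With normexp background correction the log2 fold changes were 0.076 for miR-26a-5p and 0.044 for miR-26b-5p. The median of all tested miRNAs was then 0.07, and the excess of the members over it was gone.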
